A study of Mus musculus with 126 samples.

Results

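The daily course of gene expression was measured in the colon of wild-type mice that ate normal chow ad libitum. All 18 libraries of the wild-type table were taken, of 126 libraries in the series, with 3 libraries for each of 6 harvests. Harvests are named by zeitgeber time (ZT), counted in hours from lights on, and were ZT0, ZT4, ZT8, ZT12, ZT16 and ZT20. The labels give neither age, sex nor strain for the wild-type mice, and the schedule of 12 h of light and 12 h of darkness is stated for other groups of the series. A pair of further tables is used for comparison, with 18 libraries each at the same times. These are MR knock out mice (mineralocorticoid receptor, a deletion described for this series as 8- to 12-week-old animals on chow ad libitum) and 8-week-old male C57BL/6 mice fed a low-salt diet at night only. The sources used here do not give the Cre driver or the allele of the MR deletion.

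The circadian clock is a loop of transcription factors that runs in nearly every mouse cell. BMAL1 (the product of Arntl) pairs with CLOCK or NPAS2 and binds E-boxes, where it switches on the Per and Cry genes, whose proteins then block it. The same pair drives Nr1d1 and Nr1d2, whose products REV-ERB alpha and beta repress Arntl, while ROR proteins activate it. DBP, TEF and HLF bind D-boxes and carry the rhythm to further genes. The colon epithelium renews itself continually from dividing cells at the crypt base, absorbs sodium, chloride, water and short-chain fatty acids, and meets food, bile acids and microbes in a daily cycle set by feeding.

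The deposited values are FPKM (fragments per length of transcript and number of mapped fragments), here divided by a scale factor per library. The sum of FPKM per library ran between 388012 and 496980, and the scale factor between 0.947 and 1.145 in 16 libraries. ZT8 replicate 3, with a factor of 0.615, and ZT16 replicate 1, with 0.698, lay outside that range. ZT8 replicate 3 stood apart from the other libraries: its median absolute log2 difference from the other replicates of its time was 0.455, its goblet cell markers summed to 25970 rescaled FPKM, against 7714 to 12200 in the other 17 libraries, and long transcripts were low in it (slope of -0.369 on log2 transcript length). Most of that goblet cell sum was 1 gene, Spink4, at 14500 against a median of 2110 over the 18 libraries. Counts are therefore given with and without ZT8 replicate 3. Without rescaling, the factors would move the average gene at ZT8 and ZT16 by -0.193 and -0.192 on the log2 scale, and at ZT0 and ZT20 by 0.145 and 0.138. The shifts at ZT8 and ZT16 come mostly from ZT8 replicate 3 and ZT16 replicate 1. The other factors were 1.081 and 1.008 at ZT8 and 0.947 and 1.014 at ZT16. Epithelial markers were high (Epcam at 529 to 684, Krt8 at 2040 to 4700 rescaled FPKM), whereas markers of the gut wall beneath the epithelium were near 0: 8 smooth muscle markers summed to 1.67 to 4.04 FPKM per library, 7 of fibroblasts to 0.505 to 2.78, 5 of endothelium to 0.491 to 2.3 and 8 of enteric neurons and glia to 0.515 to 1.41. The Y-linked gene Eif2s3y was detected in all 18 libraries, at 20.5 to 31.4 rescaled FPKM, and the female marker Xist was at 0.0367 or less. The labels do not say whether each library came from its own animal, so p-values measure the spread between these libraries.

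A 24 h rhythm was tested for each of 11174 genes whose rescaled FPKM averaged at least 1 over the 18 libraries, as a cosine over the 6 time means on the scale of log2(rescaled FPKM + 0.5), which understates changes of low genes. The amplitude is the log2 distance from mean to peak, ± gives its standard error unless SD is named, and adjusted p-values are from limma F tests with Benjamini-Hochberg adjustment over all genes, with 0.05 as the threshold. In wild-type colon 3278 genes passed, 29.3% of those tested, and without ZT8 replicate 3 the number was 4583, or 41%. Counts of list members given below are to be set beside 29.3%, or beside 41% without that library. Of the 3278, 3198 also passed without that library, 3127 of them with a peak within 1 h. Most rhythms were shallow. The median amplitude was 0.25 among the passing genes, a peak-to-trough fold of 1.42, against 0.14 over all genes tested, and the median standard error of the peak time was 0.796 h. Amplitudes of at least 0.5 were found in 338 genes and of at least 1 in 24. When each of the 18 libraries was left out in turn, 2270 of the 3278 genes passed every time.

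Peak times were sorted into 6 classes of 4 h centred on the harvest times. The classes held 349 genes around ZT0, 517 around ZT4, 720 around ZT8, 432 around ZT12, 537 around ZT16 and 723 around ZT20. Peaks were most frequent around ZT8 and ZT20 and fewest between ZT1 and ZT2 (65 genes) and between ZT13 and ZT14 (76). Genes of amplitude at least 0.5 were spread differently, with 46, 106, 61, 47, 32 and 46 in the classes around ZT0, ZT4, ZT8, ZT12, ZT16 and ZT20. The class around ZT4, which holds the mitotic genes described further on, had the most of these large amplitudes. Without ZT8 replicate 3 the 6 classes held 461, 765, 924, 585, 941 and 907 genes, with the largest gain around ZT16. On FPKM as deposited, without rescaling, 1838 genes passed and the classes held 479, 418, 191, 72, 108 and 570, so that peaks around ZT8, ZT12 and ZT16 were then far fewer. After quantile normalization the classes held 380, 535, 808, 389, 580 and 868 genes.

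**Figure D1:**
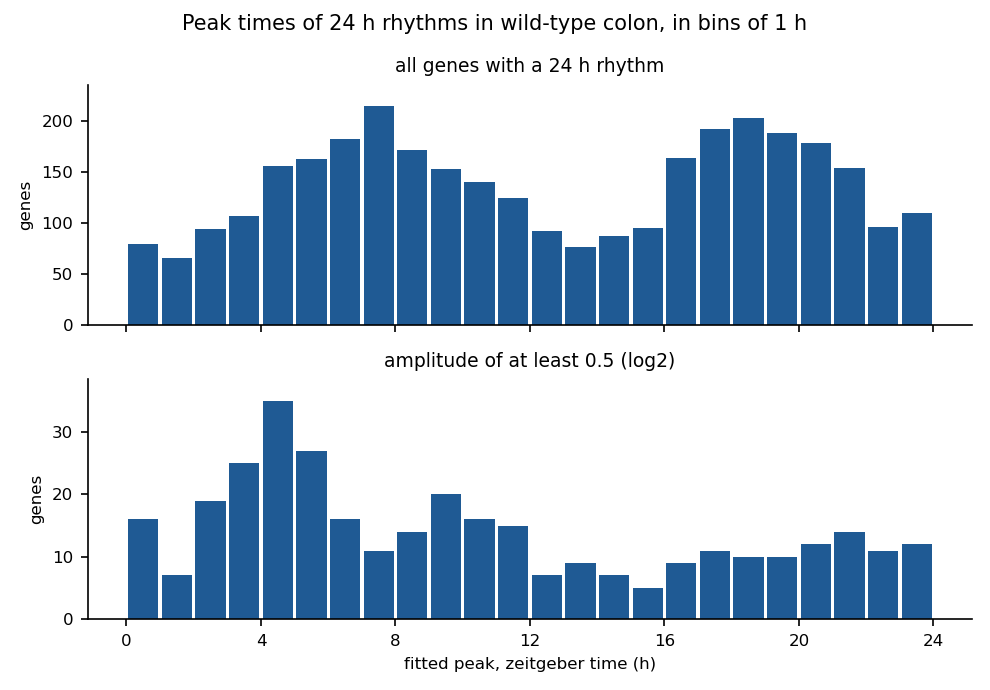
Number of genes with a 24 h rhythm in wild-type colon (vertical axis) by fitted peak time in bins of 1 h (horizontal axis, ZT in hours), above for all 3278 genes and below for the 338 with an amplitude of at least 0.5. All rhythmic genes show 2 crests, with 214 genes between ZT7 and ZT8 and 203 between ZT18 and ZT19, while large amplitudes are most frequent between ZT4 and ZT5, with 35 genes.

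Clock genes made up 7 of the 10 largest amplitudes among the genes that passed. The lists of activators, REV-ERB and ROR factors, repressors and outputs held 19 genes, of which Rora, Hlf and Bhlhe41 did not reach the expression filter. Of the remaining 16 genes 15 passed the 24 h test. The exception was Clock (amplitude 0.26 ± 0.09, peak ZT0.111, adjusted p = 0.0945 by limma), whose product is the usual partner of BMAL1 and which passed without ZT8 replicate 3. The largest amplitude was that of Dbp, the D-box activator, with 0.974, 0.897 and 0.613 at ZT0, 0.877, 0.638 and 1.5 at ZT4, 20.9, 15.3 and 25.2 at ZT8, 54.3, 44.3 and 47 at ZT12, 12.6, 15.2 and 10.7 at ZT16 and 1.19, 1.33 and 1.26 at ZT20 rescaled FPKM. Its 3 libraries at ZT12 were above all others, and those at ZT0, ZT4 and ZT20 lay close to 1. The limma fit gave an amplitude of 2.86 ± 0.08, a peak at ZT11.9 and an adjusted p of 2.44e-11.

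Arntl, which encodes BMAL1, had 19.4, 19.6 and 21.1 at ZT0, 15.5, 17.3 and 14.5 at ZT4, 4.1, 5.36 and 3.68 at ZT8, 3.72, 2.62 and 2.92 at ZT12, 4.49, 5.03 and 4.98 at ZT16 and 14, 16.3 and 19 at ZT20 rescaled FPKM. Its ZT0, ZT4 and ZT20 libraries did not overlap with those of ZT8, ZT12 and ZT16 (amplitude 1.41 ± 0.06, peak ZT23.9, adjusted p = 1.14e-09 by limma). Nr1d1, which encodes the BMAL1-driven repressor REV-ERB alpha, had 2.33, 3.66 and 3.07 at ZT0, 37.6, 27.2 and 34.6 at ZT4, 59.8, 61.2 and 47.8 at ZT8, 46.2, 43.2 and 36.5 at ZT12, 10.2, 12.4 and 9.31 at ZT16 and 0.964, 0.896 and 1.15 at ZT20. Its 3 libraries at ZT8 were above all others and those at ZT20 below (amplitude 2.67 ± 0.07, peak ZT8.84, adjusted p = 4.74e-12 by limma). Npas2, the alternative partner of BMAL1, and Nfil3, a repressor that competes for D-boxes, peaked with Arntl at ZT0.763 and ZT23.4, with amplitudes of 1.08 ± 0.06 and 1.20 ± 0.07. Nr1d2, which encodes REV-ERB beta, peaked later than Nr1d1, at ZT11 (amplitude 1.53 ± 0.09).

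The repressors peaked one after another between ZT11.9 and ZT19.8. Ciart, which encodes the repressor CHRONO, peaked at ZT11.9 (amplitude 2.39 ± 0.06), Per3 at ZT13 (0.98 ± 0.11), Per1 at ZT13.2 (0.99 ± 0.07), Cry2 at ZT15.6 (0.66 ± 0.04), Per2 at ZT16.4 (1.82 ± 0.06) and Cry1 at ZT19.8 (1.25 ± 0.06). Per2 had 6.22, 5.53 and 6.98 at ZT0, 1.04, 1.46 and 1.15 at ZT4, 4.6, 3.17 and 3.1 at ZT8, 16.4, 13.2 and 19.2 at ZT12, 21.5, 22.3 and 24.7 at ZT16 and 15.9, 17 and 15.2 at ZT20 rescaled FPKM, lowest at ZT4 and highest in the 3 libraries of ZT16. Tef and Bhlhe40, an E-box repressor, peaked at ZT12.9 and ZT14, with amplitudes of 1.80 ± 0.05 and 0.33 ± 0.05. Among regulators of clock proteins, Usp2, a deubiquitinase of PER and CRY proteins, had the largest amplitude (1.02 ± 0.05, peak ZT14.4, adjusted p = 1.11e-08 by limma).

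**Figure D2:**
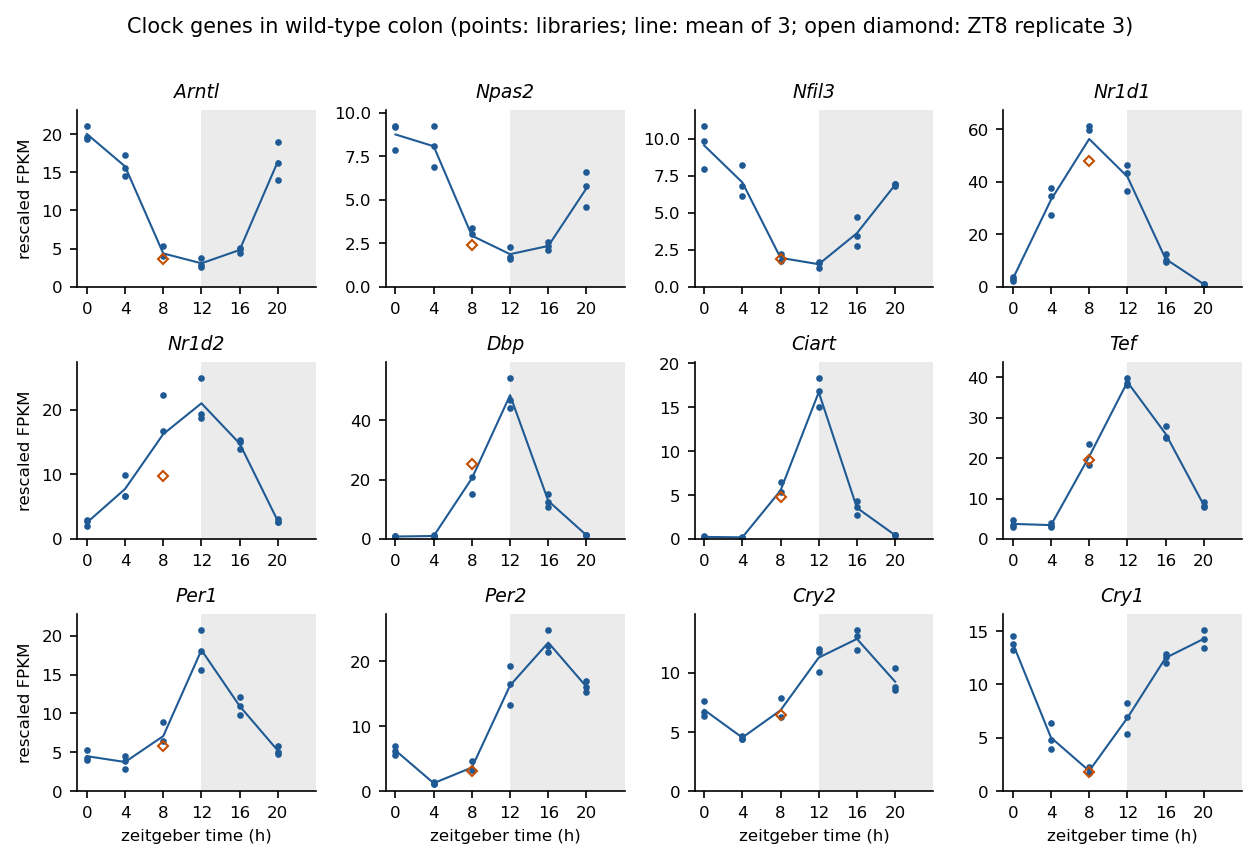
Rescaled FPKM (vertical axis, from 0) of 12 clock genes against ZT in hours (horizontal axis), with 1 point for each of the 18 wild-type libraries, a line through the mean of 3 libraries, an open diamond for ZT8 replicate 3 and grey shading from ZT12 on. Arntl, Npas2 and Nfil3 are high at ZT0 and low at ZT12, Nr1d1 is highest at ZT8, Dbp, Ciart, Tef and Per1 at ZT12, Per2 at ZT16, Cry2 at ZT16, and Cry1 at ZT20.

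The promoter windows of 3 of these genes are shown because they carry the motif that the clock factor named for each is known to bind. They run from 250 bases before to 50 after the start site and come from RefSeq on GRCm38.p6, the patched form of the build mm10 used by the authors. In Ciart (chr3:95882179-95882478, minus strand) the E-box CACGTG was found 3 times, at -116, -58 and -44 from the start. In Per3 (chr4:151044616-151044915, minus strand) the D-box TTATGTAA was found at -205 and -158, and in Nfil3 (chr13:52980990-52981289, minus strand) the REV-ERB/ROR element TAGGTCA was found on the opposite strand at -12. Capitals mark these matches, which are descriptions of the letters and not measured binding sites. Such matches were not found in every clock gene. An E-box was also found in the windows of Per1, Cry1 and Tef, and not in those of Per3, Cry2 and Dbp. The window of Arntl held no TAGGTCA on either strand.
Ciart: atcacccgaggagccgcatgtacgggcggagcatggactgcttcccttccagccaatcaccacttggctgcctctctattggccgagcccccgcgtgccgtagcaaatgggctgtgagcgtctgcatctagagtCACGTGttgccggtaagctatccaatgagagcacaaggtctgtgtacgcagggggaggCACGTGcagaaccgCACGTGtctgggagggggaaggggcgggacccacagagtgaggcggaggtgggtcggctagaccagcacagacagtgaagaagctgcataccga
Per3: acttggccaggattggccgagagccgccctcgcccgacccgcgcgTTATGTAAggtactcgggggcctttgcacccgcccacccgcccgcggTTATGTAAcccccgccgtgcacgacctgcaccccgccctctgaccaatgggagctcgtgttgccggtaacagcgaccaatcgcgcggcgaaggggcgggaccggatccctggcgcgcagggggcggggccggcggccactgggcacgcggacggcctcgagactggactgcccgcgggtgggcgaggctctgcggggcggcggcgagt
Nfil3: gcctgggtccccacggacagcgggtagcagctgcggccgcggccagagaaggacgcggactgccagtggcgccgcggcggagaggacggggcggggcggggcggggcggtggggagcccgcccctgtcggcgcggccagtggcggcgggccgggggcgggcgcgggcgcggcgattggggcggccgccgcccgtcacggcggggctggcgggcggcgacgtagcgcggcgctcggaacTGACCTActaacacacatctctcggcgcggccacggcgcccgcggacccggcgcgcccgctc

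Genes of the cell division cycle peaked in the order of the cycle, S phase genes before those of G2 and mitosis. Of 19 tested genes of DNA replication and S phase, 18 passed the 24 h test, with the exception of Tyms, and 13 of these peaked around ZT20 and 5 around ZT0, with a circular mean of ZT21.4. Of 20 tested genes of G2 and mitosis all 20 passed, 19 in the class around ZT4 and 1 in that around ZT8, with a circular mean of ZT4.23. Background is 29.3% of all genes. The list medians of the amplitude were 0.49 for S phase and 0.66 for G2 and mitosis, against 0.14 over all genes. The counts were 19 and 20 without ZT8 replicate 3, and 18 and 20 on FPKM as deposited.

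Mcm3, a subunit of the replicative helicase, had 12.5, 13.4 and 12.7 at ZT0, 6.85, 10.7 and 9 at ZT4, 6.57, 7.99 and 5.63 at ZT8, 6.63, 6.62 and 6.98 at ZT12, 14.7, 12.4 and 13.6 at ZT16 and 18.3, 15.7 and 15.7 at ZT20 rescaled FPKM. All libraries of ZT16, ZT20 and ZT0 were above those of ZT4, ZT8 and ZT12 (amplitude 0.67 ± 0.06, peak ZT20.4, adjusted p = 3.59e-06 by limma). The origin-licensing genes Cdc6 and Cdt1 and the activator E2f1 peaked with it, at ZT20.5, ZT21.1 and ZT21. The nucleotide-supplying enzymes Rrm2 and Tk1 came later, at ZT22.7 and ZT1.93. E2f2, another E2F activator, had one of the largest amplitudes of the class around ZT0 (a fitted peak-to-trough fold of 3.98, peak ZT23.5, adjusted p = 1.15e-08 by limma).

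Ccnb2, which encodes the mitotic cyclin B2, had 11.9, 12 and 10.5 at ZT0, 21.3, 18.7 and 19.7 at ZT4, 20.7, 29.5 and 31.1 at ZT8, 11.9, 15.2 and 11.2 at ZT12, 6.9, 8.87 and 6.01 at ZT16 and 7.38, 7.14 and 6.82 at ZT20 rescaled FPKM. The libraries of ZT4 and ZT8 lay above all others (amplitude 0.94 ± 0.06, peak ZT6.47, adjusted p = 4.53e-07 by limma). Top2a and Bub1, a DNA topoisomerase and a checkpoint kinase, led the mitotic list at ZT2.14 and ZT2.28, the kinase gene Cdk1 followed at ZT3.61, and Ccnb1, Cdc25c, Cdc20 and Ube2c, which act at entry into and exit from mitosis, peaked between ZT5.48 and ZT5.69. Other cell cycle genes named by amplitude were Nusap1, a spindle protein (0.97 ± 0.06, peak ZT4.44), Cdca3 (0.85 ± 0.09, ZT5.83) and Cdkn3, a phosphatase of cyclin-dependent kinases (1.14 ± 0.13, ZT7.08). The cell cycle inhibitor Cdkn1a peaked at ZT8.3 (amplitude 0.49 ± 0.05) and the mitotic brake Wee1 at ZT16.7 (0.44 ± 0.07). In bulk RNA, fewer cells of a type and less RNA per cell cannot be told apart. Of the crypt base markers 2 of 9 passed, Ephb3 and Sox9, of which Sox9 was lost in 13 of the 18 fits that left out a library, and the summed level of that list ran between 54.7 and 82 rescaled FPKM over the 18 libraries, and its part in the course of the cell cycle genes was not tested.

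Promoters of these genes are shown for the motifs that E2F factors and the mitotic DREAM and B-MYB complexes are known to bind. In Mcm6 (chr1:128359656-128359955, minus strand) the E2F site TTTGGCGC was found at -110 and -47, and in Cdk1 (chr10:69352863-69353162, minus strand) the cell cycle homology region TTTGAA was found at -71 and -15. Capitals mark these matches. Mcm6, a helicase subunit like Mcm3, peaked at ZT20.9 with an amplitude of 0.49 ± 0.05.
Mcm6: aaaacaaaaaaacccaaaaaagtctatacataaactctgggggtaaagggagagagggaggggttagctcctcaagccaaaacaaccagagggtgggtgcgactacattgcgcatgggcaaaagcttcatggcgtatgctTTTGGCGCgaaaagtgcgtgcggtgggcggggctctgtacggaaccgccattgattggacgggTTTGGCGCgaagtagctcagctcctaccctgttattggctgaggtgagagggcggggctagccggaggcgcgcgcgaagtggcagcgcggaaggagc
Cdk1: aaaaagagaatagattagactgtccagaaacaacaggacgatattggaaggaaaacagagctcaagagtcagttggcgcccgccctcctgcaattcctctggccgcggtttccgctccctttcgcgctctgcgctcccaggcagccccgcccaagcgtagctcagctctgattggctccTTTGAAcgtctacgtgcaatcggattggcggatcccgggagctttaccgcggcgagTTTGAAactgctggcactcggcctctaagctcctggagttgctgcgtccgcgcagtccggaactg

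Protein-folding genes peaked together after ZT12. Of 16 heat shock and chaperone genes 13 passed, all 13 in the class around ZT16, with a median amplitude over the 16 of 0.61. The exceptions were Hspa1a, Hspa1b and Dnajb1. Hsph1, which encodes a cytosolic nucleotide exchange factor for HSP70, had 8.76, 15.2 and 13.3 at ZT0, 6, 8.97 and 7.81 at ZT4, 5.87, 7.51 and 13.4 at ZT8, 30.2, 21.5 and 49.4 at ZT12, 72.2, 67.7 and 64 at ZT16 and 24.8, 30.2 and 18.9 at ZT20 rescaled FPKM. The ZT16 libraries were above all others and the lowest values fell at ZT4 and ZT8 (amplitude 1.50 ± 0.13, peak ZT16.1, adjusted p = 3.48e-06 by limma, a fitted peak-to-trough fold of 8.04). Hspa8, the constitutive HSP70 and by far the most abundant of the group, averaged 581 ± 44.1 at ZT4 and 2217 ± 108 at ZT16 (SD, n = 3 each), with an amplitude of 0.88. Stip1 and Chordc1, co-chaperones of HSP90, had amplitudes of 0.79 ± 0.07 and 0.67 ± 0.05. The mitochondrial chaperonin genes Hspd1 and Hspe1 peaked at ZT17.3 and ZT15.7.

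Chaperones of the endoplasmic reticulum (ER) peaked on average later than the heat shock list. Of 22 such genes 16 passed, with 1 around ZT12, 6 around ZT16 and 9 around ZT20, and a circular mean of ZT18.2, against ZT16.3 for the heat shock list. Hspa5, which encodes the ER chaperone BiP, had 180.2, 216 and 167 at ZT0, 108, 152 and 139 at ZT4, 106, 107 and 135 at ZT8, 206, 170.5 and 241 at ZT12, 376, 298 and 312 at ZT16 and 299, 258 and 212 at ZT20 rescaled FPKM. Its lowest value was at ZT8 and its highest at ZT16 (amplitude 0.71 ± 0.07, peak ZT17.6, adjusted p = 2.14e-05 by limma). Hyou1, Creld2 and Sdf2l1, which work with BiP, had amplitudes of 0.83 ± 0.09, 0.72 ± 0.13 and 0.61 ± 0.09. Herpud1, a component of ER-associated degradation, peaked before the others, at ZT13.4. The stress regulators Atf6 and Ddit3 did not pass, whereas Xbp1 did (0.28 ± 0.04, peak ZT17.6).

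The cold-inducible RNA-binding genes Cirbp and Rbm3, which rise at lower temperature in mouse cells, were on a list of 3 genes, all of which passed. Cirbp had 22, 19.2 and 17.2 at ZT0, 36.3, 31.3 and 32.5 at ZT4, 37.3, 31.2 and 31.4 at ZT8, 22.9, 23.2 and 17.6 at ZT12, 12.3, 12.8 and 9.87 at ZT16 and 14.1, 13.2 and 16.4 at ZT20 rescaled FPKM, with the libraries of ZT4 and ZT8 above all others (amplitude 0.77 ± 0.05, peak ZT5.93, adjusted p = 7.52e-07 by limma). Rbm3 peaked at ZT9.81 (amplitude 0.90 ± 0.06) and Rbmx at ZT7.4 (0.32 ± 0.03). In the promoter of Chordc1 (chr9:18292017-18292316, plus strand), shown because 2 heat shock elements GAANNTTC lie next to each other in it, the matches in capitals were at -4 and 7.
Chordc1: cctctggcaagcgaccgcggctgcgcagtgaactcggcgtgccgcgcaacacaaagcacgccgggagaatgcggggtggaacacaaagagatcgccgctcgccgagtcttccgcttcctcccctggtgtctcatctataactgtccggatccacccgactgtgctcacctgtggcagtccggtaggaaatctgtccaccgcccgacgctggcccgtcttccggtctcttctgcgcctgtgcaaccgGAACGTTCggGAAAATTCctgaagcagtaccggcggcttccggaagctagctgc

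**Figure D3:**
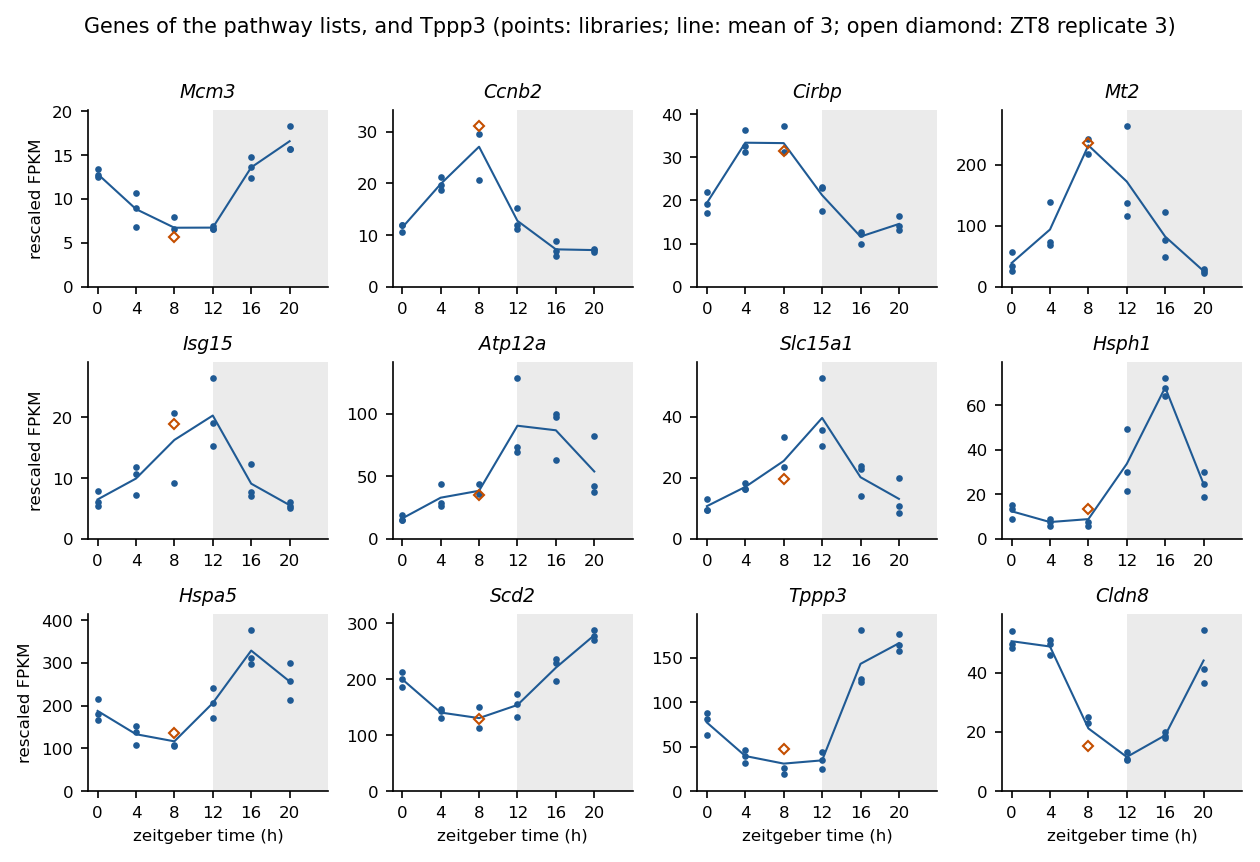
Rescaled FPKM (vertical axis, from 0) against ZT in hours (horizontal axis) for 12 genes of wild-type colon, with 1 point for each of the 18 libraries, a line through the mean of 3 libraries, an open diamond for ZT8 replicate 3 and grey shading from ZT12 on. Mcm3 is lowest at ZT8 and ZT12, Ccnb2 and Cirbp are highest at ZT4 and ZT8, Isg15, Atp12a and Slc15a1 at ZT12, Hsph1 and Hspa5 at ZT16, and Scd2 and Tppp3 at ZT20.

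Of 11 tested genes of polyamine and nucleotide supply 8 passed, with a circular mean of ZT18.2, among them Srm, spermidine synthase (0.51 ± 0.09, peak ZT17.6), Odc1, ornithine decarboxylase (0.20 ± 0.04, ZT17.5), and Gart and Umps of purine and pyrimidine synthesis (ZT18.5 and ZT17). Of 16 ribosome biogenesis genes 7 passed, around ZT16.9, among them Gnl3, Rrs1 and Nolc1, nucleolar proteins, with amplitudes of 0.34 ± 0.05, 0.35 ± 0.06 and 0.37 ± 0.07. Of 15 cytosolic ribosomal protein genes 1 passed, Rpl3, which peaked at ZT9.89 (amplitude 0.36 ± 0.10). That count, like 2 of 16 proteasome subunits and 2 of 16 respiratory chain subunits, lies under the 29.3% of all genes. Rpl3 was lost in 10 of the 18 fits that left out a library. With the trend on transcript length removed in each library 8 ribosomal protein, 6 proteasome and 5 respiratory chain genes passed, where 41.7% of all genes tested did.

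Of 10 tested fatty acid synthesis genes 7 passed, 6 around ZT20 and 1 around ZT0, of which Acaca did not pass without ZT8 replicate 3 and was lost in 8 of the 18 fits that left out a library. Scd2, a stearoyl-CoA desaturase, had 186, 201 and 214 at ZT0, 130.0, 144 and 148 at ZT4, 113, 151 and 128 at ZT8, 156, 132 and 174 at ZT12, 197, 229 and 236 at ZT16 and 288, 271 and 278 at ZT20 rescaled FPKM. Its 3 values at ZT20 were the highest of the day (amplitude 0.54 ± 0.05, peak ZT19.5, adjusted p = 1.13e-05 by limma). Srebf1, which encodes the activator SREBP1 of this pathway, peaked at ZT20.7 (0.42 ± 0.05), Fasn, fatty acid synthase, at ZT18.2 (0.29 ± 0.05) and Scd1 at ZT21.2 (0.39 ± 0.06). Of 21 tested genes of cholesterol synthesis 2 passed, under the 29.3% of all genes, Dhcr7 (peak ZT19.4) and Insig1 (peak ZT5.47, lost in 9 of the 18 fits that left out a library).

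Fatty acid oxidation and fasting genes were split over the day, with 11 of 19 passing, 3 around ZT0, 4 around ZT8, 1 around ZT12, 2 around ZT16 and 1 around ZT20. Slc25a20, the carnitine carrier of mitochondria, peaked at ZT7.62 (0.55 ± 0.06), Plin2, a lipid droplet coat protein, at ZT11.9 (0.40 ± 0.06), Angptl4, an inhibitor of lipoprotein lipase, at ZT18.3 (0.89 ± 0.11) and Pdk4, which restrains glucose oxidation, at ZT0.588 (0.52 ± 0.11). Acaa2 and Hadha, enzymes of beta oxidation, did not pass without ZT8 replicate 3, and were lost in 16 and 15 of the 18 fits that left out a library. Of 16 genes of insulin and nutrient signalling 3 passed, Sesn1, Ddit4 and Asns, under the 29.3% of all genes, and 8 did without ZT8 replicate 3, where 41% of all genes passed. Asns was lost in 8 of the 18 fits, and Ddit4 without ZT20 replicate 2.

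**Figure D4:**
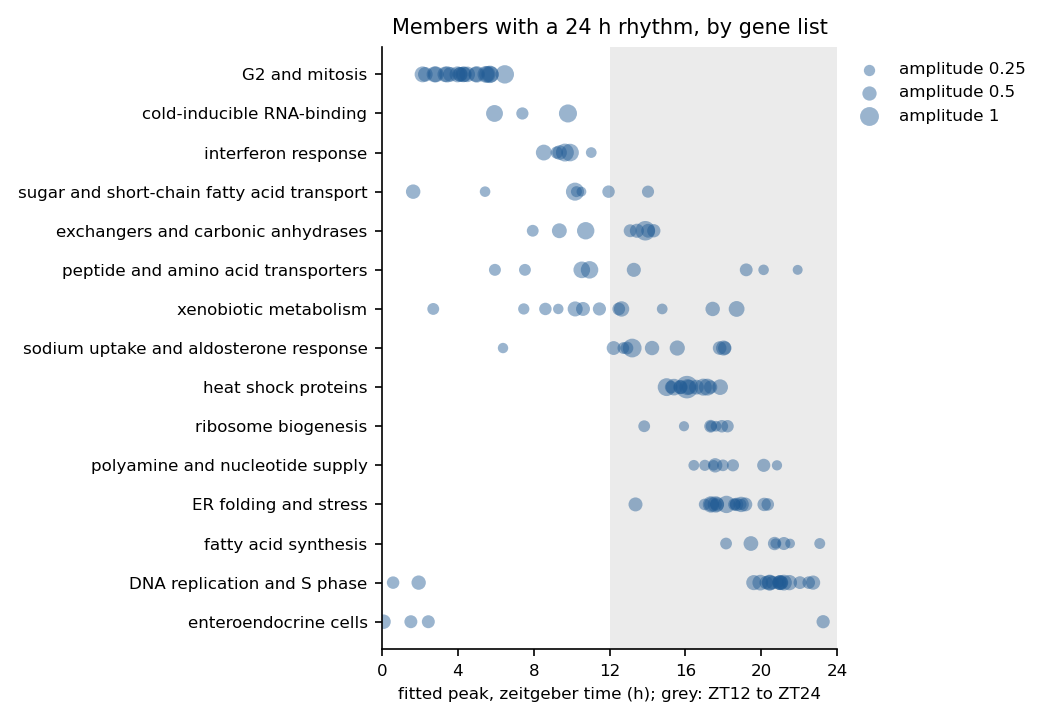
Fitted peak time (horizontal axis, ZT in hours, grey from ZT12 to ZT24) of the members that passed the 24 h test in 15 gene lists (1 row each), with 1 point per gene whose area grows with its amplitude. G2 and mitosis genes lie between ZT2.1 and ZT6.5, heat shock proteins between ZT15 and ZT17.8, and S phase genes around ZT21.4, whereas members of xenobiotic metabolism are spread widely.

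Of 14 tested genes of sodium uptake and of the aldosterone response 10 passed, 1 around ZT8, 4 around ZT12, 3 around ZT16 and 2 around ZT20. Atp1b1, a beta subunit of the sodium pump, averaged 441 ± 13 rescaled FPKM at ZT4 and 772 ± 79.8 at ZT12 (SD, n = 3 each), with a peak at ZT12.9. Scnn1a, the alpha subunit of the epithelial sodium channel ENaC, passed (amplitude 0.28 ± 0.06, peak ZT12.7, adjusted p = 0.00562 by limma), while Scnn1b had an amplitude of 0.11 ± 0.06 that did not pass (adjusted p = 0.369). Sgk1, a kinase induced by mineralocorticoids and glucocorticoids, had 73.7, 60.7 and 72.1 at ZT0, 37.1, 53.5 and 55.5 at ZT4, 44, 42.3 and 34.4 at ZT8, 169.7, 95.1 and 139.7 at ZT12, 87.6, 90.5 and 99 at ZT16 and 67.6, 73.3 and 56.6 at ZT20 rescaled FPKM. The 3 libraries of ZT12 held its highest value and its widest spread (amplitude 0.59 ± 0.08, peak ZT15.6, adjusted p = 2.36e-04 by limma). Tsc22d3 and Fkbp5, which respond to glucocorticoids, peaked at ZT17.8 and ZT14.2. Hsd11b2, the enzyme that inactivates glucocorticoids in aldosterone target cells, peaked at ZT18.1 (0.42 ± 0.04), and Nr3c2, which encodes MR itself, did not pass (amplitude 0.25 ± 0.12, adjusted p = 0.281).

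Of 13 tested exchangers and carbonic anhydrases 8 passed, 2 around ZT8, 4 around ZT12 and 2 around ZT16. Atp12a, the colonic proton and potassium pump, had 15.2, 18.8 and 15.3 at ZT0, 26.5, 43.7 and 28.8 at ZT4, 36.2, 43.9 and 35.5 at ZT8, 129, 69.5 and 73.5 at ZT12, 97.1, 100.1 and 63.4 at ZT16 and 37.6, 42.4 and 81.9 at ZT20 rescaled FPKM. Its ZT0 libraries were the lowest, and those of ZT12 and ZT16 lay above the libraries of ZT0, ZT4 and ZT8 (amplitude 1.09 ± 0.12, peak ZT13.9, adjusted p = 4.55e-05 by limma). Slc26a3, the chloride and bicarbonate exchanger of the surface epithelium, peaked at ZT13.4 (0.48 ± 0.09), Car2, a carbonic anhydrase, at ZT14 (0.46 ± 0.05), and Slc9a3, the sodium and proton exchanger NHE3, at ZT10.7 (0.82 ± 0.22, lost in 6 of the 18 fits that left out a library). Of 10 anion and potassium secretion genes 4 passed, among them Kcnq1, which was lost in 13 of the 18 fits that left out a library. Cftr, the chloride channel, and Slc12a2, the basolateral cotransporter that feeds it, had amplitudes of 0.11 ± 0.14 and 0.16 ± 0.14 and did not pass (adjusted p = 0.814 and 0.625 by limma).

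Of 12 tested tight junction genes 4 passed, near the background of 29.3%. The claudin Cldn8 had the largest amplitude of these, with 49.6, 48.3 and 53.9 at ZT0, 45.8, 51.1 and 49.6 at ZT4, 23.1, 25.1 and 15.3 at ZT8, 13.2, 10.5 and 10.8 at ZT12, 20.1, 18.6 and 17.8 at ZT16 and 36.5, 41.4 and 54.3 at ZT20 rescaled FPKM. The libraries of ZT0, ZT4 and ZT20 were all above those of ZT8, ZT12 and ZT16 (amplitude 1.10 ± 0.07, peak ZT0.298, adjusted p = 1.78e-07 by limma). Cldn2, a claudin that forms cation pores, peaked at ZT19.3 (0.73 ± 0.08) and Cldn15, another pore-forming claudin, at ZT14.3 (0.25 ± 0.05). The water channel Aqp8 passed (amplitude 0.47 ± 0.10, peak ZT10.1, adjusted p = 0.00554 by limma), as did Aqp11, an intracellular aquaporin (0.19 ± 0.04, ZT8.93), while Aqp1 and Aqp4 did not.

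Of 8 tested genes of sugar and short-chain fatty acid transport 7 passed, 1 around ZT0, 1 around ZT4, 4 around ZT12 and 1 around ZT16. Slc2a1, Slc16a3 and Slc16a1, among the 7, were lost in 7, 5 and 2 of the 18 fits that left out a library. Slc2a5, the fructose transporter GLUT5, had a low level (mean 1.34 rescaled FPKM) and an amplitude of 0.90 ± 0.05 at ZT10.2, and Slc5a1, the sodium and glucose cotransporter SGLT1, an amplitude of 0.34 ± 0.05 at ZT11.9. Ffar2, a receptor for short-chain fatty acids, peaked at ZT1.64 (0.52 ± 0.13). Of 14 peptide and amino acid transporters 8 passed, 1 around ZT4, 1 around ZT8, 3 around ZT12 and 3 around ZT20. Slc6a20a, Slc7a8 and Slc1a1, among the 8, were lost in 16, 7 and 4 of the 18 fits that left out a library. Slc15a1, the peptide transporter PEPT1, with 9.59, 13.2 and 9.47 at ZT0, 16.3, 18.4 and 16.4 at ZT4, 23.5, 33.5 and 19.7 at ZT8, 52.7, 30.5 and 35.7 at ZT12, 23.9, 22.8 and 14 at ZT16 and 8.42, 10.9 and 20.1 at ZT20 rescaled FPKM, was highest at ZT12 (amplitude 0.84 ± 0.12, peak ZT10.9, adjusted p = 4.21e-04 by limma), and Slc36a1, a proton-coupled amino acid transporter, peaked at ZT10.5 (0.74 ± 0.07). Slc7a5 and Slc3a2, the chains of the LAT1 exchanger, peaked at ZT19.2 and ZT20.1 (0.37 ± 0.06 and 0.20 ± 0.03).

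Of 25 tested genes of xenobiotic metabolism 12 passed, spread over 5 classes. Cyp3a13, a cytochrome P450, peaked at ZT10.2 (0.57 ± 0.05), Gsta1, a glutathione transferase, at ZT12.6 (0.61 ± 0.07), Ces1d, a carboxylesterase, at ZT18.7 (0.65 ± 0.08) and Alas1, the first enzyme of haem synthesis, at ZT17.4 (0.52 ± 0.06). Cytochrome, esterase and transferase genes have near-identical copies among which reads may be split, so these values are uncertain. Of 15 nuclear receptor and HNF genes 6 passed, with small amplitudes except for Nr1i3, the receptor CAR (0.57 ± 0.08, peak ZT11.3). The metallothioneins Mt1 and Mt2, which bind zinc and are induced by metals and glucocorticoids, had large amplitudes for genes outside the clock. Mt2 had 56.5, 34.7 and 25.7 at ZT0, 139, 73.8 and 68.3 at ZT4, 241, 218 and 235 at ZT8, 263, 137 and 116 at ZT12, 76.5, 122 and 48.2 at ZT16 and 23.5, 25.7 and 28.5 at ZT20 rescaled FPKM. The libraries of ZT8 and ZT12 were above those of ZT0 and ZT20 (amplitude 1.53 ± 0.15, peak ZT9.39, adjusted p = 1.55e-05 by limma), and Mt1 had an amplitude of 0.96 ± 0.11 at ZT10.3.

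Of 12 tested interferon response genes 6 passed, 5 of them around ZT8 and 1 around ZT12. Isg15, a ubiquitin-like protein induced by interferon, had 7.91, 6.07 and 5.49 at ZT0, 10.6, 11.9 and 7.28 at ZT4, 9.2, 20.8 and 18.8 at ZT8, 26.4, 19 and 15.3 at ZT12, 12.4, 7.73 and 7.13 at ZT16 and 5.14, 5.49 and 6.04 at ZT20 rescaled FPKM. The highest value was at ZT12 and the libraries of ZT8 ranged widely (amplitude 0.85 ± 0.12, peak ZT9.92, adjusted p = 3.00e-04 by limma). Oasl2 and Ifit1, further interferon-induced genes, had amplitudes of 0.89 ± 0.08 and 0.53 ± 0.09 at ZT9.65 and ZT9.37. The summed level of MHC class II and myeloid markers ran between 8.36 and 66.4 rescaled FPKM, with 57.6 in ZT0 replicate 2, 66.4 in ZT4 replicate 2 and 53.5 in ZT8 replicate 2, and its part in the interferon genes was not tested. Of 16 antimicrobial and defence genes 2 passed, under the 29.3% of all genes. They were Nlrp6, an inflammasome sensor, and Saa1, an acute-phase protein, at ZT9.77 and ZT14.4. Saa1 was lost in 3 of the 18 fits that left out a library. Of 16 immediate early genes 1 passed, Ier3 (amplitude 0.37 ± 0.06, peak ZT15.4), also under the 29.3% of all genes. Fos, Egr1 and Jun, which respond fast to stimuli and handling, did not pass (adjusted p = 0.818, 0.618 and 0.924 by limma).

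The share of all genes tested that passed, 29.3%, is the background for the marker counts that follow. Counts of goblet cell, regional, T cell and MHC class II and myeloid markers lay under it. Among cell type markers, 4 of 9 enteroendocrine genes passed with a circular mean of ZT0.826: Sst, somatostatin (0.41 ± 0.09), Gcg, proglucagon (0.38 ± 0.10), Tph1, which makes serotonin (0.52 ± 0.14) and Chgb, a granule protein (0.38 ± 0.11). Gcg, Tph1 and Chgb were lost in 5, 3 and 8 of the 18 fits that left out a library. Of 9 surface colonocyte markers 5 passed, among them Krt20, a keratin of differentiated cells, at ZT12.5 (0.32 ± 0.06). Slc37a2, another of them, did not pass without ZT8 replicate 3 or ZT20 replicate 1. Slc26a3 and Aqp8, given above among transport genes, are on the surface colonocyte list too. The sum of that list averaged 3980 rescaled FPKM at ZT4 and 5553 at ZT12, and its part in the course of the transport genes was not tested. Of 9 goblet cell markers 1 passed, Muc2, the main mucin (amplitude 0.30 ± 0.07, peak ZT0.297, adjusted p = 0.0165 by limma, and not without ZT12 replicate 1). The sum of the goblet cell list was highest in ZT8 replicate 3, where most of it was Spink4. Of 8 tested regional factors 0 passed limma's 24 h test, with Hoxb13, a marker of the distal colon, the 1 at an unadjusted p under 0.05, and 4 passed without ZT8 replicate 3, where 41% of all genes did. Of 4 tested T cell markers 1 passed, Gzmb, a protease of cytotoxic cells (0.48 ± 0.11, peak ZT2.5). Of 4 tested markers of MHC class II and myeloid cells 0 passed, with 2 at an unadjusted p under 0.05 in limma. Fibroblast, endothelial, enteric neuron and glia, fat and B cell markers did not reach the expression filter.

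Among EGF receptor ligands, receptors and feedback genes 2 of 11 passed, under the 29.3% of all genes. Dusp6, a phosphatase of ERK kinases that this pathway induces, had 26.6, 29.3 and 29.4 at ZT0, 13.2, 20.5 and 19.9 at ZT4, 10.3, 7.65 and 9.2 at ZT8, 15.4, 10.8 and 16.5 at ZT12, 23.3, 17 and 20.3 at ZT16 and 23.7, 24.6 and 34.3 at ZT20 rescaled FPKM. Its libraries of ZT8 were below all others, and its averages were highest at ZT0 and ZT20 (amplitude 0.75 ± 0.08, peak ZT21.2, adjusted p = 3.37e-05 by limma). Erbb2, a receptor of the family, peaked at ZT6.17 (0.23 ± 0.04). Without ZT8 replicate 3, 5 members passed, where 41% of all genes did.

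The scaling of the libraries moved the counts of all genes and of the lists. On FPKM as deposited 16.4% of all genes tested passed, against 29.3% after rescaling. There 0 anion and potassium secretion genes passed, 4 exchangers and carbonic anhydrases, 5 of fatty acid oxidation and fasting, 5 of polyamine and nucleotide supply, 5 peptide and amino acid transporters, 2 of sugar and short-chain fatty acid transport, 6 of xenobiotic metabolism, 1 nuclear receptor, 2 surface colonocyte markers and 3 goblet cell markers. After quantile normalization 31.8% of all genes passed. There 5 exchangers and carbonic anhydrases and 2 surface colonocyte markers passed, and Slc26a3, Car4 and Krt20 did not. The counts of 18 S phase, 20 mitotic and 13 heat shock genes were the same under both scalings. With both ZT8 replicate 3 and ZT16 replicate 1 left out, a setting added after the data were seen, they were 19, 20 and 13.

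Some of the largest amplitudes belonged to genes on none of the lists. Tppp3, a tubulin-binding protein, had 88, 81 and 62.7 at ZT0, 39.8, 46.7 and 32 at ZT4, 18.9, 26.1 and 47.9 at ZT8, 43.6, 24.9 and 35.4 at ZT12, 181, 126 and 123 at ZT16 and 177, 157 and 165 at ZT20 rescaled FPKM. The libraries of ZT16 and ZT20 lay above all others (amplitude 1.35 ± 0.12, peak ZT19.5, adjusted p = 4.07e-06 by limma). Tmem252, a membrane protein, peaked at ZT23.7 (1.03 ± 0.06), Bco2, a carotenoid-cleaving enzyme, at ZT4.57 (0.84 ± 0.07), Prss23, a serine protease, at ZT5.29 (0.92 ± 0.13), Nupr1, a stress-induced nuclear protein, at ZT6 (0.99 ± 0.09), Ankrd37 at ZT7.65 (1.05 ± 0.08), Ccbl1, a kynurenine aminotransferase, at ZT14.3 (0.80 ± 0.06) and C2cd4b at ZT20.8 (0.81 ± 0.09).

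When the 6 times were compared without a set waveform, 2273 genes differed between any times in limma (F test, 5 degrees of freedom), 20.3% of those tested, and 3660 did so without ZT8 replicate 3. Of the 2273, 2171 also had a 24 h rhythm. The 24 h component held a median of 85.9% of the variance between times in these genes, the 12 h component 9.14% and the 8 h component 2.43%. Of the 15 pairs of times, at least 1 differed in 3067 genes (27.4%), with adjustment over all genes and pairs together, and in 5010 without ZT8 replicate 3.

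The pair of times that differed in the most genes was ZT20 and ZT8, and the pair with the fewest was ZT8 and ZT4. Between ZT20 and ZT8 1247 genes differed, with 606 higher and 641 lower at ZT20, between ZT16 and ZT8 1167 and between ZT16 and ZT4 1127. Between ZT8 and ZT4 109 genes differed and between ZT20 and ZT0 132. Without ZT8 replicate 3 these 5 pairs had 1474, 1985, 2066, 148 and 277 genes, so that ZT16 and ZT4 then differed most. Of the steps between neighbouring harvests, ZT12 to ZT16 was the largest, with 329 genes higher and 436 lower at ZT16, and ZT8 to ZT12 had 327 higher and 249 lower at ZT12. Without ZT8 replicate 3 these 2 steps had 1624 and 808 genes.

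Clock genes were among those that moved most at each step. Nr1d1 rose most into ZT4 (log2 difference ZT4 minus ZT0 of 3.26 ± 0.16) and Arntl fell into ZT8 (ZT8 minus ZT4, -1.75 ± 0.14). Per2 and Hsph1 rose most into ZT12 (ZT12 minus ZT8, 2.02 ± 0.15 and 1.86 ± 0.31), Tppp3 and Hsp90aa1, the inducible HSP90, rose most into ZT16 (ZT16 minus ZT12, 2.05 ± 0.28 and 1.56 ± 0.19), and Dbp and Nr1d1 fell most into ZT20 (ZT20 minus ZT16, -2.91 ± 0.20 and -2.88 ± 0.16). Ccl20, a chemokine that attracts lymphocytes, had 1.82, 2.84 and 2.13 at ZT0, 21.9, 17.8 and 7.03 at ZT4, 3.14, 2.01 and 3.12 at ZT8, 3.68, 2.85 and 2.08 at ZT12, 1.57, 3.02 and 1.58 at ZT16 and 1.45, 0.993 and 1.36 at ZT20 rescaled FPKM. It was high only in the 3 libraries of ZT4, which spread between 7.03 and 21.9 (ZT4 minus ZT0, 2.41 ± 0.34, adjusted p = 6.84e-04 by limma). Col8a1, a collagen, fell into ZT16 (ZT16 minus ZT12, -1.97 ± 0.55, adjusted p = 0.0469 by limma). Snora15, Mir8099-1 and Mir8099-2, short non-coding genes, also passed at some steps, but were listed at 0 in several libraries, so that no fold is given.

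A 12 h harmonic passed in 19 genes, 0.17% of those tested, although 1013 had an unadjusted p under 0.05 in the same limma test. Without ZT8 replicate 3 the number was 38 and included all 19. The count was not stable to other single libraries. It ran between 4 (without ZT0 replicate 1 or ZT12 replicate 1) and 85 (without ZT12 replicate 2), was 46 without ZT8 replicate 1, and was within 1.5 times of 19 only without ZT4 replicate 2 (14), ZT8 replicate 2 (18) or ZT16 replicate 3 (23). Of the 19 genes 4 passed in all 18 of these fits, Ciart, Nr1d1, Mir8099-1 and Mir8099-2. On FPKM as deposited 7 passed, without the filter on low values 5, and with a term for the replicate number 4. Harvests 4 h apart give 3 points per 12 h cycle, so a 12 h component cannot be told apart from one of 6 h. An 8 h component passed in none (0%), with 872 genes at an unadjusted p under 0.05. Of the 19 genes 15 also had a 24 h rhythm, and for these the harmonic describes a course that departs from a cosine.

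Clock genes and a clock regulator made up 5 of the 19. Ciart had 0.193, 0.214 and 0.3 at ZT0, 0.117, 0.279 and 0.167 at ZT4, 6.47, 5.3 and 4.78 at ZT8, 18.3, 15 and 16.8 at ZT12, 3.65, 4.3 and 2.68 at ZT16 and 0.398, 0.48 and 0.412 at ZT20 rescaled FPKM, with a steep crest at ZT12 (12 h amplitude 0.64 ± 0.06, adjusted p = 0.00141 by limma). Nr1d1, with its low values at ZT20 and ZT0, had a 12 h amplitude of 0.62 ± 0.07, adjusted p = 0.00286, Cry1 of 0.46 ± 0.06, adjusted p = 0.0207, Per2 of 0.43 ± 0.06, adjusted p = 0.0255 and Usp2 of 0.37 ± 0.05, adjusted p = 0.0179. Dbp, which also had its crest at ZT12, did not pass (12 h amplitude 0.50 ± 0.08, adjusted p = 0.0562).

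A second set had a crest at ZT12 or dropped after it. Sgk1, given above, had a 12 h amplitude of 0.51 ± 0.08, adjusted p = 0.0327, and its relative Sgk2 averaged 17.2 ± 3.13 at ZT8 and 27.8 ± 3.16 at ZT12 (SD, n = 3 each). Dgat2, an enzyme of triglyceride synthesis, had 15.2, 15 and 12.5 at ZT0, 9.5, 9.99 and 8.12 at ZT4, 13.5, 11.3 and 14.7 at ZT8, 30.9, 26.6 and 30.9 at ZT12, 17.8, 22.1 and 22.8 at ZT16 and 16.7, 14.2 and 14.5 at ZT20 rescaled FPKM, all 3 libraries of ZT12 above the rest (12 h amplitude 0.36 ± 0.05, adjusted p = 0.0255). Coq10b, a mitochondrial protein, averaged 18.3 ± 1.45 at ZT8 and 37.8 ± 4.48 at ZT12, and Fkbp5, an HSP90 co-chaperone of steroid receptors, 30.4 ± 1.94 and 64 ± 7.64. Adra2a, the alpha 2A adrenergic receptor, and Ptprr, a tyrosine phosphatase, were lowest at ZT16 and ZT20, with averages of 15.1 ± 1.56 and 9.27 ± 1.11 at ZT12 and 6.25 ± 1.67 and 2.84 ± 0.0305 at ZT16.

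The 4 genes without a 24 h rhythm were Ifit1bl2, Cables1, Mir8099-1 and Mir8099-2. Ifit1bl2, an interferon-induced family member, had 3.21, 2.78 and 1.97 at ZT0, 1.04, 1.47 and 1.27 at ZT4, 1.93, 1.39 and 1.35 at ZT8, 2.77, 3.56 and 2.35 at ZT12, 0.856, 1.15 and 1.64 at ZT16 and 2.04, 1.82 and 2.42 at ZT20 rescaled FPKM. Its averages were highest at ZT0 and ZT12, and the libraries of both times overlapped with those of ZT20. The limma fit gave a 12 h amplitude of 0.53 ± 0.08, adjusted p = 0.0296 and a 24 h amplitude of 0.09 that did not pass. Creb3l3, a transcription factor of fasting metabolism, had 1.6, 2 and 1.91 at ZT0, 0.539, 0.778 and 0.504 at ZT4, 0.918, 0.765 and 1.41 at ZT8, 2.66, 2.42 and 2.68 at ZT12, 1.18, 0.955 and 1.98 at ZT16 and 1.91, 1.22 and 1.18 at ZT20 (12 h amplitude 0.55 ± 0.08, adjusted p = 0.0293), with its highest averages at ZT0 and ZT12. Cables1, an interactor of cyclin-dependent kinases, had its highest average at ZT12 (12 h amplitude 0.30 ± 0.05, adjusted p = 0.0327). Mir8099-1 and Mir8099-2 carried identical values on both rows, at 0 in 11 of 18 libraries and between 7.34 and 17.7 in the others, and their harmonic of 2.71 is uncertain. The remaining genes were Aim1l and D630039A03Rik, named to complete the 19.

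**Figure D5:**
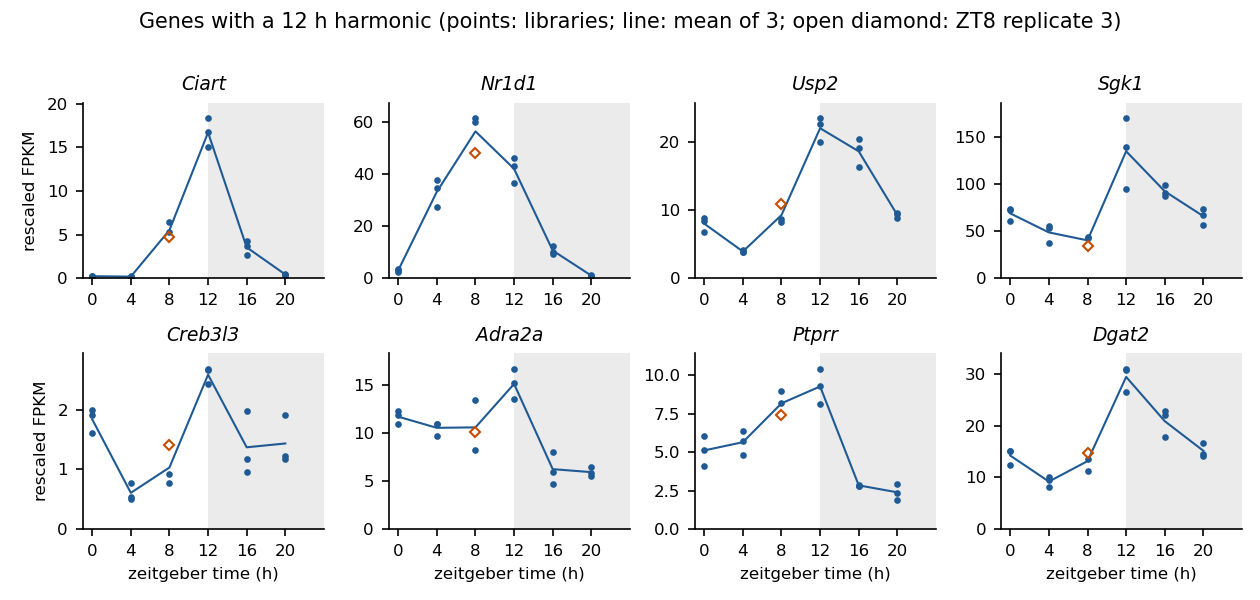
Rescaled FPKM (vertical axis, from 0) against ZT in hours (horizontal axis) for 8 genes with a 12 h harmonic in wild-type colon, with 1 point for each of the 18 libraries, a line through the mean of 3 libraries, an open diamond for ZT8 replicate 3 and grey shading from ZT12 on. Ciart, Usp2, Sgk1 and Dgat2 are highest at ZT12, Nr1d1 at ZT8, Creb3l3 has its highest averages at ZT0 and ZT12, and Adra2a and Ptprr are lowest at ZT16 and ZT20.

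Promoter motifs were counted in the windows of 8462 tested genes that matched the RefSeq table, 2509 of them with a 24 h rhythm, using the first start listed for each gene and both strands. None of the motifs contains another. The shares are descriptions with Wilson 95% intervals for counting error only and no test. The E-box CACGTG stood in 14.9% (11.5 to 19.2) of the promoters of the class around ZT12 and 13.9% of that around ZT16, against 10.6% of all tested genes and 7.24% of all RefSeq promoters. It stood in 26.2% of the 42 promoters around ZT12 with an amplitude of at least 0.5. The cell cycle homology region TTTGAA stood in 25% (21 to 29.5) of the promoters around ZT4 and in 51.9% of the 79 with an amplitude of at least 0.5, against 11.7% of all tested genes. E2F sites (TTTCCCGC or TTTGGCGC) stood in 6.24% (4.52 to 8.56) around ZT20 and in 5.56% around ZT0, against 3.08%.

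Heat shock elements GAANNTTC stood in 6.5% of promoters around ZT16, against 5.71% of all tested genes, and in 26.1% of the 23 with an amplitude of at least 0.5. On the heat shock list 8 of 13 matched promoters held one. These include Hspa1a and Hspa1b, which did not pass the 24 h test and share the match GAAGATTC at -104. On the S phase list 7 of 17 held an E2F site. On the list of G2 and mitosis 11 of 15 held the cell cycle homology region and 14 of 15 a CCAAT box, against 39.1% of all tested genes for the CCAAT box. The D-box (TTATGTAA or TTACGTAA) stood in 1.22% of promoters around ZT12 and 1.39% around ZT16, against 0.638%. These classes held 432 and 537 genes, not all with a matched promoter, so the D-box shares rest on few promoters. The REV-ERB/ROR element TAGGTCA stood in 1.98% around ZT0, against 1.96%. The remaining motifs were the cyclic AMP element TGACGTCA (3.4% of all tested genes), the ATF6 site TGACGTGG (0.851%), the serum response element CCATATTAG (0.0827%) and the sterol element TCACCCCAC (0.567%). Their shares in the 6 classes ran between 1.83 and 4.37%, 0 and 1.25%, 0 and 0.397%, and 0 and 0.891%.

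The wild-type rhythms were then looked up in the MR knock out and low salt night fed tables, which were rescaled and fitted on their own. Fewer genes passed there: 836 of 10811 (7.73%) in MR knock out and 1606 of 10997 (14.6%) in low salt night fed. Of wild-type 24 h genes 610 of 3140 (19.4%) also passed in MR knock out, against 2.93% of the other genes tested there, and 1126 of 3190 (35.3%) in low salt night fed, against 5.88%. Of those that passed in both, 93.4% peaked within 4 h of the wild-type time in MR knock out and 91.8% in low salt night fed, with a median shift (other table minus wild type) of -1.01 h in MR knock out and 0.732 h in low salt night fed. Over the genes with a wild-type amplitude of at least 0.5 these shifts were -1.91 h and -0.133 h, so that the sign for low salt night fed depends on the genes taken. Of the 19 genes with a 12 h harmonic in wild type 0 passed limma's test in either table, with 9 at an unadjusted p under 0.05 in MR knock out and 6 in low salt night fed. Over all genes 0 of 10811 (0%) passed in MR knock out and 6 of 10997 (0.0546%) in low salt night fed, with 534 and 1075 at an unadjusted p under 0.05.

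All 15 clock genes with a 24 h rhythm in wild type also passed in both other tables. Dbp peaked at ZT11.9 in wild type, at ZT10.4 in MR knock out and at ZT12.3 in low salt night fed, with amplitudes of 2.86, 2.33 and 2.89. Arntl peaked at ZT23.9 in wild type, at ZT22.5 in MR knock out and at ZT24 in low salt night fed (amplitudes 1.41, 1.25 and 1.18). Among genes outside the clock, Ccnb2 peaked in these tables at ZT6.47, ZT4.09 and ZT4.27, and Cirbp at ZT5.93, ZT6.36 and ZT7.36. Atp12a and Sgk1 peaked at ZT13.9 and ZT15.6 in wild type, at ZT19.9 and ZT21.5 in MR knock out and at ZT14.1 and ZT15.1 in low salt night fed. Both passed narrowly in MR knock out (adjusted p = 0.0400 and 0.0448 by limma). In low salt night fed their adjusted p were 0.0380 and 5.26e-04 by limma. Mt2 and Tppp3 passed in wild type and low salt night fed and not in MR knock out (adjusted p = 0.395 and 0.637 by limma). These differences between tables were not tested. The tables differ in genotype, diet, feeding time and perhaps age, and for MR knock out perhaps in sex. Diet, feeding time and perhaps age cannot be told apart for the low salt night fed mice, which were male.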

How the data were processed

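RNA-seq was made from polyA RNA of colon, per the labels, with 3 libraries per time for each of 7 groups. Expression values per gene were deposited by the authors in 1 table per group, and the 7 tables were not pooled. Per the submitters' processing notes, TopHat2 2.1.1, Cufflinks 2.2.1 and the build mm10 were used. The authors made and deposited the FPKM values with these tools, and the unit is inferred from Cufflinks, as the headers name only time and replicate. The sources used here do not give counting settings, strand or annotation. FPKM holds no read count, so the depth is unknown and no counting interval or floor is given for expression.

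Values of 24883 rows were divided by a median-of-ratios factor per library, taken over 14220 genes above 0 in all 18 wild-type libraries, and tested as log2(rescaled FPKM + 0.5) for genes with a mean of at least 1. limma 3.58.1 in R 4.3.3 fitted 1 mean per time (12 residual degrees of freedom, eBayes with trend and robust). Contrasts of the 6 means gave the 24 h and 12 h components (2 degrees of freedom each), the 8 h component (1), any difference between times (5) and the 15 pairs. Standard errors of amplitude and peak time are by the delta method. The script was tested on simulated data. Fits without a library kept the factors and genes of all 18. Of 280 symbols on more than 1 row (817 rows), 101 rows were tested and none of these symbols is named. Transcript lengths of GENCODE vM21 were found for 96.2% of tested rows. Motif counts were made in Python 3.11.15.

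Named genes were the clock lists, the largest 24 h amplitudes overall and in each class (mean of at least 5), the largest and most significant 12 h components, the 2 largest rises and falls at each step, and for each list the 4 members of smallest p at most, without predicted genes. Further list members were named after their values were seen, for their roles. Members, gene lists and motifs were chosen with earlier results of these data known. Replicates of a time differed by a median absolute log2 difference between 0.0879 and 0.518. Deviations of same-numbered libraries of different times correlated between -0.616 and 0.448 (17 of 45 over 0.1, median 0.0475). For other numbers 31 of 90 were over 0.1 (median -0.0119), and the replicate number was not used as a block. Replicate 3 had the highest slope on transcript length of its time at ZT0, ZT4, ZT12, ZT16 and ZT20 (0.155, 0.122, 0.0393, 0.0229 and 0.103). At ZT8 it had the lowest. With a replicate block 2746 genes passed the 24 h test. Alternatives are another pseudocount, filter, scaling, a length correction, array weights, a replicate block, harmonic terms alone and each library or replicate number left out. The 4 remaining tables were not used here.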

Additional observations from a re-analysis of the deposited data

How the results depend on the processing

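Numbers of genes are given in the order 24 h rhythm, 12 h harmonic, any difference between times and at least 1 pair of times, against 3278, 19, 2273 and 3067 as reported. On FPKM as deposited they were 1838, 7, 1020 and 1452, and of the 1838 genes 1451 were among the 3278, 1423 of them with a peak within 2 h. With the trend on transcript length removed per library the last 3 were 34, 3489 and 4703. With array weights, whose estimate did not converge, they were 8127, 4221, 10835 and 10980. The 12 h count was 5 without a filter on low values and 4 with a replicate block. The replicate block changed no other of these counts by over 1.5 times, nor did pseudocounts of 0.1 and 1, a minimum mean of 5, quantile normalization, no robust step, harmonic terms alone, or leaving out both libraries that stand apart (added after the data were seen). The cause of these changes was not tested.

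Leaving out a library, or all libraries of a replicate number, gave 624 to 4583 genes for the 24 h rhythm, 0 to 85 for the 12 h harmonic, 156 to 3660 for any difference between times and 225 to 5010 for the pairs. The lowest values were without replicate 2, which leaves 2 libraries per time. Of single libraries, ZT8 replicate 3 alone moved the last 2 counts by over 1.5 times. Of 167 named calls 46 were lost on FPKM as deposited, 16 with the replicate block, 15 without a filter, 12 after quantile normalization, and 51, 74 and 22 without replicate 1, 2 and 3. Depth is unknown, so what it limits cannot be given.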
